A study of Rattus norvegicus with 21 samples.

Results

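Uninjured urinary bladders collected at 16 weeks were compared with uninjured bladders collected at 8 weeks, gene by gene, to describe late change in the bladder transcriptome in the absence of spinal cord injury (SCI). The members were the control libraries that the labels place at these weeks, 3 at 8 weeks and 3 at 16 weeks, which are 6 of the 21 libraries of the series. All 21 libraries came from full-thickness bladders of wild-type (labelled WT) Sprague Dawley rats, all male, of an outbred strain. The series holds uninjured controls at 0, 2, 8 and 16 weeks and rats examined 2, 8 and 16 weeks after complete transection of the midthoracic cord, with 3 libraries in each of 7 groups. Injured rats were 6 to 7 weeks old at surgery, and controls were described as matched to them in age. Weeks count from surgery in injured rats, so the 8 and 16 weeks of the matched controls are not their ages. Whether controls had a sham operation is not given in the sources used here. Each library has its own code in the labels, the leading part of which is common to the controls of a week. What the codes stand for is not given in the sources used here. The p-values below therefore rest on the spread between samples, estimated for each gene over all 7 groups together.

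The bladder wall consists of a urothelial lining, a lamina propria rich in fibroblasts, vessels and immune cells, and the detrusor, a layer of smooth muscle that relaxes during filling and contracts during voiding. Male rats of this strain continue to gain weight after sexual maturity, and the bladder grows with the animal. Full-thickness tissue pools the RNA of all these layers, so fewer cells of a type and less RNA per cell cannot be told apart.

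The files hold Ensembl gene identifiers without symbols, and 0 of 32754 identifiers matched the RefSeq gene table. Genes are therefore described by their values, with 4 identifiers printed, and neither pathway lists nor markers of the labelled tissue could be checked. Libraries held 9157219 to 9487928 counts at 8 weeks and 9653541 to 15472537 counts at 16 weeks, so the totals of the groups did not overlap. Replicate 1 at 16 weeks was the deepest of the 21 libraries. A level of 1 CPM (read counts relative to library size, scaled by the trimmed mean of M values) rested on 8.46 to 8.89 counts at 8 weeks and on 9.53 to 15.1 counts at 16 weeks. The 10 most abundant genes took 11.0% to 11.8% of counts at 8 weeks and 9.78% to 11.0% at 16 weeks. Use of strand in counting is not given in the sources used here, and overlapping, antisense or near-identical genes may share reads.

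The first question was how many genes differed between 16- and 8-week controls. A gene was called when its Benjamini-Hochberg adjusted p in edgeR's quasi-likelihood test was under 0.05, and log2 fold changes are 16 weeks over 8 weeks throughout. Of 15225 genes tested, 12 were called (0.0788%), of which 11 rose (0.0722%) and 1 fell (0.00657%). At an unadjusted p under 0.05, 757 genes were higher (4.97%) and 689 were lower (4.53%) at 16 weeks. Scaling by library size alone changed this split to 1091 higher and 383 lower. All 3 libraries at 16 weeks lay above all 3 at 8 weeks for 959 genes (6.3%) and below them for 1132 genes (7.44%). For 3 libraries against 3, the smallest two-sided p of an exact permutation test is 0.1. Calls were therefore taken from a fit of all 21 libraries, whose groups share an estimate of spread for each gene. Without the 15 libraries outside the comparison, the fit called 0 genes.

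Most genes differed little between these weeks. The median log2 fold change was 0.0011, and the middle part of the distribution, from the 25th to the 75th percentile, ran from -0.14 to 0.13. The 5th and 95th percentiles were -0.51 and 0.56. The absolute log2 fold change was under 0.25 for 10851 genes (71.3%) and at least 1 for 420 genes (2.76%). Median within-group SD of log2 CPM over all tested genes was 0.184 at 8 weeks and 0.156 at 16 weeks.

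**Figure D1:**
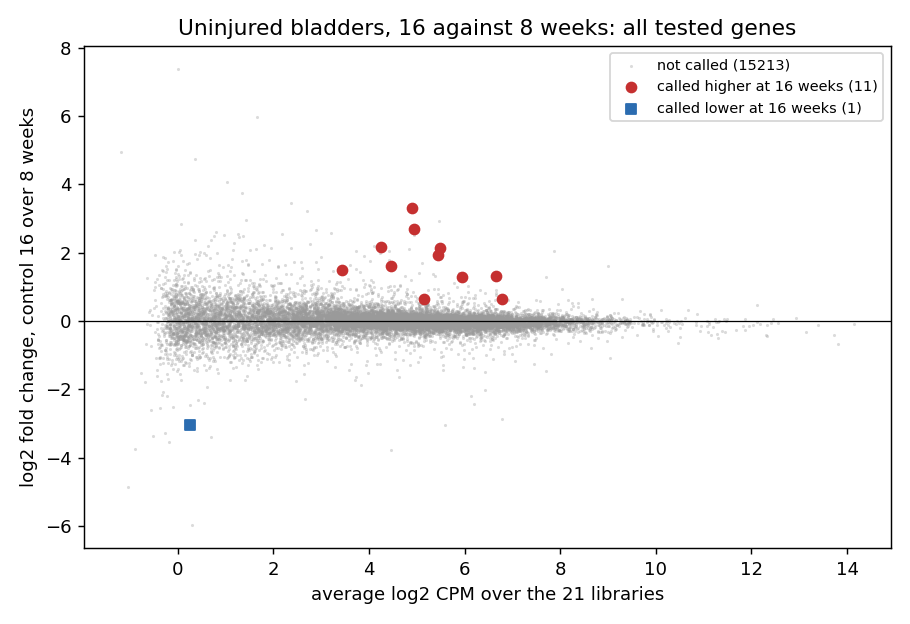
Each point is 1 of 15225 tested genes, with average log2 CPM over the 21 libraries on the horizontal axis and fitted log2 fold change (16 over 8 weeks, controls) on the vertical axis. The 11 genes called higher have average log2 CPM from 3.43 to 6.79, and the 1 gene called lower has an average of 0.27.

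Larger differences were concentrated among genes of low level. In the lowest quartile of average level the median absolute log2 fold change was 0.304, and in the highest quartile it was 0.0905. At an unadjusted p under 0.05, the lowest quartile held 211 higher and 134 lower genes, and the highest quartile held 97 higher and 227 lower genes. These splits were computed with scaling by the trimmed mean of M values only. Of the 69 genes with a difference of 4-fold or more in either direction, 5 were called. Among the 64 that were not called, the groups overlapped for 37, and the average log2 CPM was under 1 for 30. Their median for the larger within-group SD was 1.41 on the log2 scale, against 0.589 for the genes called higher and 0.231 for all tested genes.

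The 11 genes that rose did so by 1.55-fold to 9.95-fold (median 3.08-fold), and 9 of them rose by at least 2-fold. Their adjusted p ranged from 0.0103 to 0.0376. None was in the lowest quartile of level, 2 were in the second, 6 in the third and 3 in the highest. SE and p in the fit rest on spread pooled over all 21 libraries, not on the compared groups alone. The median within-group SD of log2 CPM for the 11 genes that rose was 0.194 at 8 weeks and 0.589 at 16 weeks. Spread at 16 weeks was not wide for each of them. One gene had 8.15, 6.30 and 4.95 CPM at 8 weeks (mean 6.47 ± 1.61, SD, n = 3) and 18.6, 16.3 and 19.1 CPM at 16 weeks (mean 18.02 ± 1.48, SD, n = 3), with a log2 fold change of 1.48 (SE 0.26). Its call was lost in 17 of 32 alternative fits, among them that with equal totals (edgeR's adjusted p = 0.0632). The 32 fits used another tool or test, scaling, filter or set of libraries, a replicate block or equal totals, or left out each of the 21 libraries in turn.

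Replicate 2 at 16 weeks had the lowest value of its group for 10 of the 11 genes, and replicate 1 had the highest for 8. Over all tested genes, replicate 2 was the lowest of its group in 31.6%, and among the 757 genes higher at an unadjusted p under 0.05 it was the lowest in 58.0%. Relative to the mean of the 8-week controls, the 11 genes had a median fold of 3.48 in replicate 1, 2.10 in replicate 2 and 3.61 in replicate 3. Each of the 11 was still above all 8-week controls in replicate 2.

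**Figure D2:**
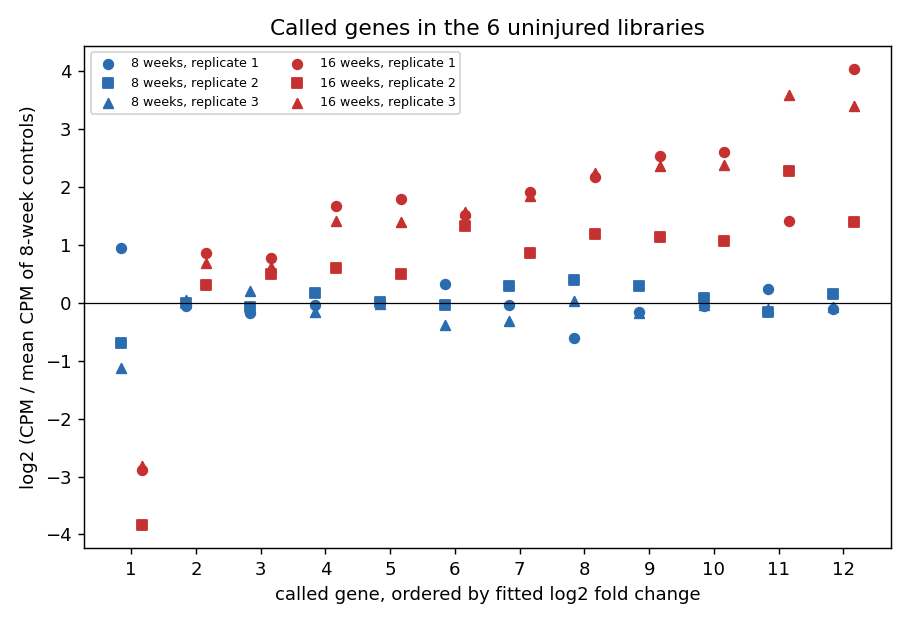
Each column is 1 of the 12 called genes, ordered by fitted log2 fold change, and each symbol is 1 of the 6 uninjured libraries, as log2 of its CPM over the mean CPM of the 8-week controls. For 10 of the 11 genes called higher, replicate 2 at 16 weeks (red square) is the lowest of its group.

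ENSRNOG00000042905 had the smallest p of all genes tested. Its levels were 14.1, 17.5 and 11.6 CPM at 8 weeks (mean 14.4 ± 2.99, SD, n = 3). At 16 weeks they were 54.6, 26.2 and 52.0 CPM (mean 44.3 ± 15.7, SD, n = 3). The groups did not overlap, and replicate 2 at 16 weeks lay nearer to the 8-week controls than to the other 16-week libraries. The log2 fold change was 1.62 (SE 0.23) and edgeR's adjusted p was 0.0103. This call was lost in 5 of the 32 alternative fits. Among them were those without replicate 1 or replicate 3 at 16 weeks (edgeR's adjusted p 0.0674 and 0.0837).

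ENSRNOG00000045924 had the next smallest p. Its levels were 11.5, 12.6 and 11.7 CPM at 8 weeks and 72.7, 25.1 and 62.2 CPM at 16 weeks. Levels at 8 weeks were close together, whereas those at 16 weeks were widely spread, with replicate 2 lowest. The log2 fold change was 2.16 (SE 0.31) with edgeR's adjusted p of 0.0103. Its call was also lost in 5 of the 32 alternative fits. Without replicate 1 or replicate 3 at 16 weeks, edgeR's adjusted p was 0.0674 and 0.0837. In the remaining 15 libraries this gene ranged from 7.64 to 18.3 CPM, below every 16-week control, and ENSRNOG00000042905 ranged from 13.3 to 26.7 CPM, which reached above the lowest 16-week control.

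Among the other genes that rose, the largest fitted change was 9.95-fold (log2 fold change 3.32, SE 0.55, edgeR's adjusted p = 0.0254). That gene had 11.5, 13.6 and 11.7 CPM at 8 weeks and 202.6, 32.5 and 130.5 CPM at 16 weeks. In the injured groups it stood at 44.3 CPM in replicate 2 of SCI 8 weeks, above the lowest 16-week control, and at 7.80 to 22.99 CPM in the other 8 injured libraries. A more abundant gene had 76.3, 76.7 and 74.4 CPM at 8 weeks and 263.5, 107.04 and 200.8 CPM at 16 weeks (log2 fold change 1.33, SE 0.24, edgeR's adjusted p = 0.0376). Both had the same order among the 16-week libraries, with replicate 1 highest and replicate 2 lowest. Without replicate 1 of the 16-week controls, the log2 fold change of the first of these genes was 2.73 (edgeR's adjusted p = 0.167), no longer the largest of the 11. The calls of both genes were lost on leaving out any 1 of 5 of the 6 libraries, and in 8 and 20 of the 32 alternative fits.

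The smallest fitted changes among the genes that rose were both 1.55-fold to 1.56-fold. One of these genes had 25.6, 27.4 and 33.3 CPM at 8 weeks and 49.5, 40.7 and 44.0 CPM at 16 weeks (log2 fold change 0.64, SE 0.11). The other had 84.6, 87.7 and 91.4 CPM at 8 weeks and 159.6, 108.6 and 141.0 CPM at 16 weeks (log2 fold change 0.63, SE 0.11). Their groups did not overlap, and their edgeR adjusted p values were 0.0358 and 0.0376. Scaling by library size alone gave adjusted p of 0.0562 and 0.0632, and these genes lost the call in 20 and 22 of the 32 alternative fits, 12 of them for each gene being fits without 1 library outside the comparison.

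One gene that rose had another pattern over the weeks. Its levels were 12.6, 9.63 and 10.01 CPM at 8 weeks and 28.7, 52.4 and 130.2 CPM at 16 weeks, with replicate 3 far above the others (fitted change 6.51-fold, edgeR's adjusted p = 0.0195). Its 2-week controls were at 51.5 to 57.9 CPM and its 0-week controls at 17.0 to 50.9 CPM. The 8-week controls were therefore below every control of the other weeks, and the 16-week controls overlapped those of weeks 0 and 2. The 9 injured libraries were at 10.8 to 16.9 CPM. Without replicate 3 of the 16-week controls its log2 fold change was 1.91 and edgeR's adjusted p was 0.0837. The call was also lost without replicate 1 or replicate 2 of the 8-week controls (adjusted p 0.125 and 0.112).

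ENSRNOG00000000636 was the 1 gene that fell. Its levels were 5.67, 1.83 and 1.35 CPM at 8 weeks and 0.40, 0.21 and 0.42 CPM at 16 weeks, from 48, 16 and 12 counts against 6, 2 and 4 counts. The groups did not overlap, the counts at 16 weeks were few, and replicate 1 at 8 weeks stood above the others of its group. The log2 fold change was -3.04 (SE 0.49, edgeR's adjusted p = 0.0195). Without replicate 1 at 8 weeks the log2 fold change was -2.15, and the adjusted p was 0.0924. With every library thinned to the same total, the log2 fold change was -4.38 (adjusted p = 0.00598). Levels were 1.34 to 2.13 CPM in 0-week controls, 0.71 to 1.01 CPM in 2-week controls and 0.30 to 0.66 CPM in the 9 injured libraries, which overlapped the 16-week controls.

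ENSRNOG00000058457 had the smallest p among the genes that were lower without being called, had no overlap between groups, differed by 0.5 or more on the log2 scale and had an average log2 CPM of 1 or more. Its levels were 5.08, 4.59 and 4.50 CPM at 8 weeks and 2.05, 2.98 and 2.31 CPM at 16 weeks. The libraries of each week lay close together. The log2 fold change was -0.96 (SE 0.19) and edgeR's adjusted p was 0.0906. Under the same conditions, 213 genes that were not called were higher and 200 were lower.

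**Figure D3:**
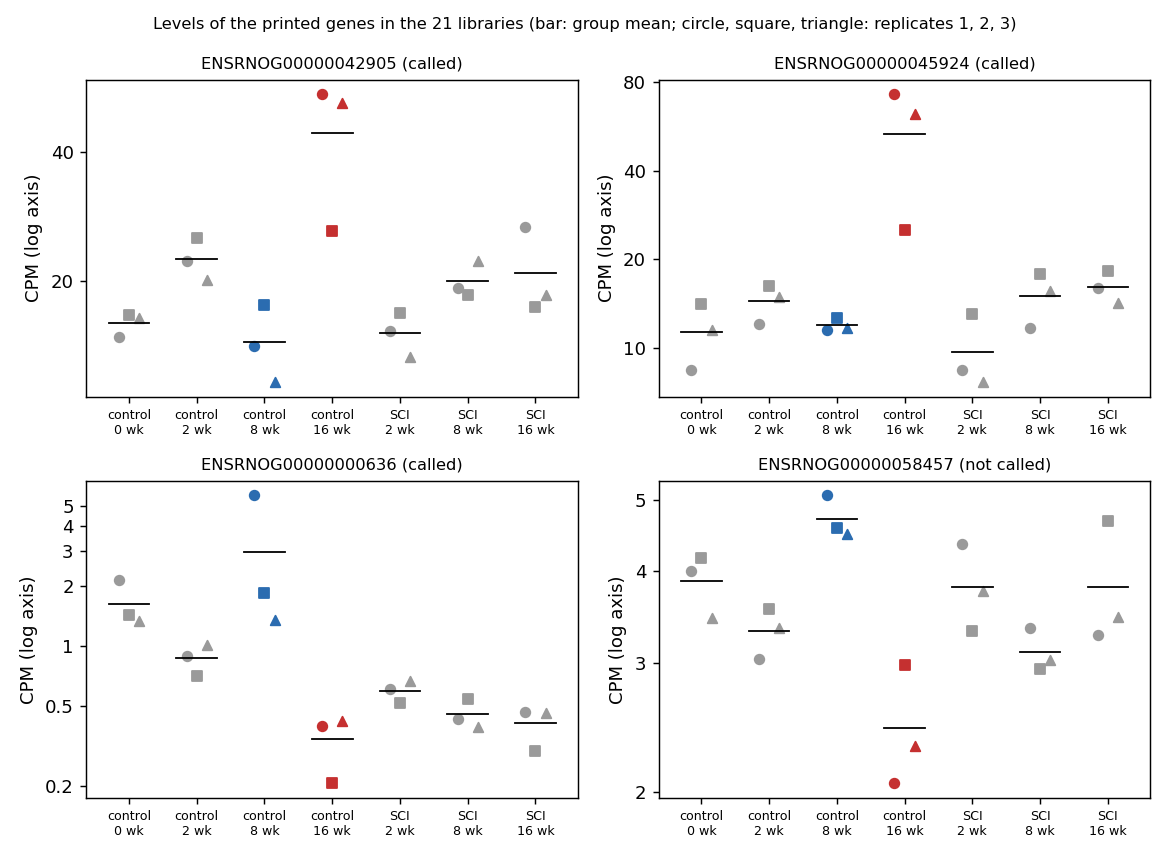
CPM on a log axis of the 4 printed genes in each of the 21 libraries, grouped by arm and week, with symbols for replicates and a bar for the group mean. ENSRNOG00000045924 lies between 25.1 and 72.7 CPM in 16-week controls (red) and at most at 18.3 CPM elsewhere, and ENSRNOG00000000636 lies between 0.21 and 0.42 CPM in 16-week controls, overlapping the injured libraries at 0.30 to 0.66 CPM.

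The genes that rose were next placed against all other libraries. All 3 of the 16-week controls were above all 18 other libraries for 5 of the 11 genes, compared with 0.519% of all tested genes. Replicates 1 and 3 were above all 18 others for 10 of the 11, compared with 2.90% of all tested genes. The 16-week controls were above all 9 earlier controls for 8 genes, compared with 1.20% of all tested genes, and above all 9 injured libraries for 6 genes, compared with 8.30%. Because the genes were chosen for their values in the 16-week controls, these counts are descriptions.

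The second question was whether injured bladders changed in the same way between 8 and 16 weeks. This comparison shares no library with that of the controls. In SCI bladders, edgeR's quasi-likelihood test called 0 genes between 16 and 8 weeks, with 275 genes at an unadjusted p under 0.05 and a smallest adjusted p of 0.697. For the 12 genes called in controls, the log2 fold change in SCI bladders lay between -0.26 and 0.11, with unadjusted p from 0.433 to 0.870. The SCI libraries of both weeks overlapped for each of the 11 genes that rose in controls, as they did for 93.1% of all tested genes.

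The difference between the arms was then tested as an interaction. No gene was called (0%), with 1010 genes at an unadjusted p under 0.05 (6.63%) and a smallest edgeR adjusted p of 0.326. DESeq2's Wald test called 20 genes for this interaction. For the 12 genes called in controls, which were chosen with the same control libraries, the unadjusted p of the interaction was between 0.000121 and 0.00221, and the adjusted p between 0.326 and 0.504. A difference between the arms was therefore not shown at the threshold for these genes by edgeR's quasi-likelihood test. Without replicate 2 of the 16-week controls, 23 genes were called for the interaction, and without replicate 3 of the 8-week controls 1 gene was called. Across the 15225 genes, which are not independent replicates, log2 fold changes in the 2 arms had a Pearson correlation of -0.11 and a Spearman correlation of -0.12.

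**Figure D4:**
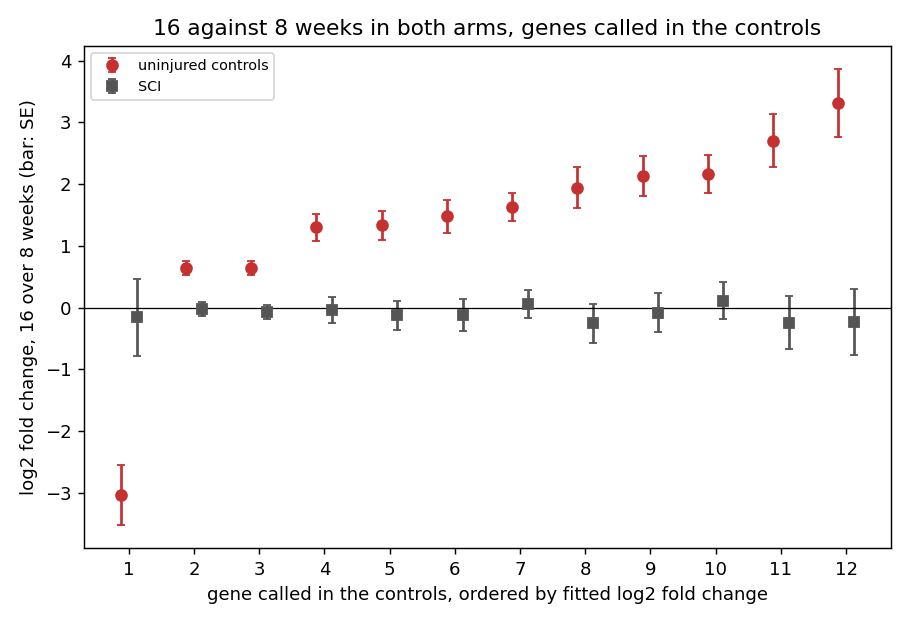
Log2 fold changes of 16 over 8 weeks, with SE as bars, of the 12 genes called in uninjured controls (red circles) and of the same genes in SCI bladders (grey squares). In controls the 11 genes called higher lie between 0.63 and 3.32, and in SCI bladders all 12 genes lie between -0.26 and 0.11.

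Earlier intervals in uninjured bladders were placed beside the late one. Between 8 and 2 weeks, which shares the 8-week controls with the late comparison, edgeR's quasi-likelihood test called 0 genes, with 2881 at an unadjusted p under 0.05. Between 2 and 0 weeks it also called 0 genes, with 2044 at an unadjusted p under 0.05. Of the 11 genes that rose late, 3 had an unadjusted p under 0.05 between 8 and 2 weeks, compared with 18.9% of all tested genes. Log2 fold changes of the 11 in that interval ranged from -2.33 to 0.21, with 1 above 0. The log2 fold change was above 0 for 51.0% of all tested genes, and for 28.5% of the 757 genes higher at 16 weeks at an unadjusted p under 0.05. Because the 8-week controls enter both comparisons with opposite sign, these values are set side by side only. ENSRNOG00000000636 had a log2 fold change of 1.75 (SE 0.43, edgeR's adjusted p = 0.125) from 2 to 8 weeks, before its late fall.

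The number of calls depended on single libraries. Without replicate 1 or replicate 3 of the 16-week controls, 1 and 0 genes were called. Without replicate 2 of the same group, 129 genes were called, 124 higher and 5 lower, and these included all 12 reported genes. Without replicate 1, 2 or 3 of the 8-week controls, 0, 6 and 31 genes were called, and 22 of the 31 were lower. Of the 12 reported genes, 4 were among the 6 and 6 were among the 31. The fit of the 6 compared libraries alone called 0 genes, with 572 higher and 707 lower at an unadjusted p under 0.05. After every library was thinned to the smallest total, 8087726 counts, 11 genes were called, and 10 of them were among the 12 reported. Of the 15 libraries outside the comparison, replicate 2 of SCI 8 weeks moved the count most, to 24 calls when it was left out.

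**Figure D5:**
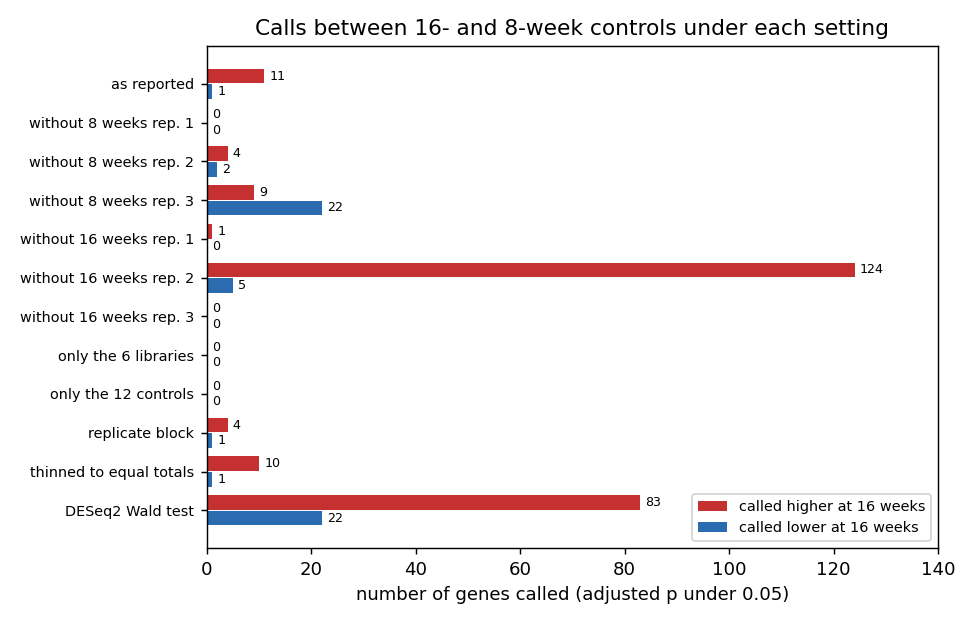
Bars give the number of genes called higher (red) and lower (blue) at 16 weeks in uninjured bladders, at an adjusted p under 0.05, under each setting named on the vertical axis. Calls range from 0 genes without replicate 1 at 8 weeks to 124 higher and 5 lower genes without replicate 2 at 16 weeks.

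The sets past an unadjusted p of 0.05 also showed an order among libraries. Among the 689 lower genes, replicate 1 at 8 weeks was the highest of its group for 62.7% and replicate 3 the lowest for 59.9%, compared with 33.5% and 31.4% of all tested genes. Among the 757 higher genes, replicate 1 at 16 weeks was the highest of its group for 56.9%, compared with 32.6% of all tested genes. The part of depth or of any library in these patterns was not tested beyond the fits without each library and with equal totals.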

How the data were processed

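RNA from full-thickness rat bladder was sequenced by the authors as stranded, ribosome-depleted libraries, and reads from both flow cells were summed. The deposited table holds raw counts for each Ensembl gene, not normalized. The submitters' processing notes name Rnor_6.0, FastQC 0.11.9, MultiQC 1.13, Trim Galore 0.6.10, STAR 2.7.10a, SAMtools 1.17, featureCounts 2.0.3 and Subread, without roles. Every library is labelled batch 1.

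Groups were taken from sample titles. Of 32754 genes, 24319 had at least 1 count, and filterByExpr kept 15225. All 21 libraries were fitted in edgeR 4.0.16 (R 4.3.3) with TMM factors (0.903 to 1.09), a mean for each of 7 groups and 14 residual degrees of freedom, and tested by the quasi-likelihood F test with Benjamini-Hochberg adjustment over all tested genes. The common biological coefficient of variation was 0.160. Scripts were tested on simulated data. Replicates differed beyond sampling noise in every pair within the 8- and 16-week controls (chi-square per degree of freedom 13.3 to 19.1). Log2 CPM used a prior count of 2.

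The rule for named genes took every called gene, then the genes not called with the smallest p that met the conditions in the text. Without symbols, 2 identifiers per direction are printed, and 33 gene lists were not tested. Members and lists were chosen with earlier results of these data known. Alternatives were DESeq2 1.42.0, other scaling, filters, thresholds and library sets, a replicate block and fits without each library. Thinning, the likelihood ratio test and fits without each of the 15 libraries outside the comparison were chosen after seeing the data.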

Additional observations from a re-analysis of the deposited data

How the results depend on the processing

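Relative to the 12 calls reported (11 higher, 1 lower), DESeq2's Wald test called 105 genes (83 higher, 22 lower) and the likelihood ratio test of edgeR 99 (83 higher, 16 lower), and both sets included the 12. Without a count filter 20 genes were called (19 higher). The 6 compared libraries alone and the 12 control libraries alone each gave 0 calls (0 higher, 0 lower), with 1279 and 1068 genes at an unadjusted p under 0.05. Without the 0-week controls 2 genes were called lower. An unadjusted p under 0.05 with a log2 difference of 0.5 or more gave 747 genes (441 higher, 306 lower), and 718 for the difference between arms. DESeq2 gave 20 calls for that difference, where edgeR's quasi-likelihood test gave 0. Leaving out 1 library at a time gave 0 to 129 calls, 0 to 124 higher and 0 to 22 lower, and 0 to 23 for the difference between arms. Leaving out 1 of the 15 libraries not compared gave 8 to 13 calls, except 24 without SCI 8 weeks replicate 2. The cause of these shifts was not tested.

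With the replicate number as a block, 5 genes were called (4 higher, 1 lower), all among the 12. In the 8- and 16-week controls, deviations of libraries with the same number had correlations of -0.01, -0.13 and -0.03. Those with different numbers had correlations from -0.16 to 0.18. Deviations from means of 3 libraries cannot decide whether the numbers pair the samples.

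No called gene changed sign in 17 alternative fits, not counting those without libraries outside the comparison. In all 32 fits, the 12 genes lost the call in 5 to 22. ENSRNOG00000042905, ENSRNOG00000045924 and ENSRNOG00000000636 were each called in 12 of the 17 fits, with adjusted p up to 0.463, and ENSRNOG00000058457 in 3 of the 17. All 3 lost the call with only the 6 or 12 libraries and without replicate 1 at 8 weeks or replicate 1 or 3 at 16 weeks. Counting error is largest in the lowest quartile of level, and differences there were the least precise.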

Other observations

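The order of the genes in the count table is not described in the sources used here. Of the 11 genes called higher at 16 weeks, 3 stood in consecutive rows, among them ENSRNOG00000042905 and ENSRNOG00000045924, and 5 stood within 73 of the 32754 rows. That stretch was chosen after the values were seen, by these 5 genes, and held 46 tested genes. Of the 41 tested genes in it that were not called, 29 had a log2 fold change above 0 (70.7%, against 50.2% of all tested genes). At an unadjusted p under 0.05, 8 of the 41 were higher and 0 were lower, against 4.97% and 4.53% of all tested genes. Their median log2 fold change was 0.12. Whether genes of this stretch share reads was not tested.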
